A study of Mus musculus with 6 samples.

Results

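The MAP kinase phosphatase and Sprouty genes are feedback brakes on the MAP kinase cascades, and 10 of them were followed here in Lewis cells given the KDM4C inhibitor SD70. They were taken by gene symbol from the deposited tables: Dusp1, Dusp2, Dusp4, Dusp5, Dusp6, Dusp8, Dusp10, Dusp16, Spry2 and Spry4. All 10 were among the 16081 genes listed, and all 10 had enough counts to be among the 11552 genes tested. Lewis cells, labelled as mouse lung adenocarcinoma cells, are an established mouse lung carcinoma line. Poly(A) RNA-seq was done on 3 samples kept for 24 hours with the vehicle DMSO and 3 kept for 24 hours with SD70, with no genetic change in either group, and the sources used here give no SD70 dose for this experiment. The study states in general that experiments were repeated independently, but the labels do not say that these samples of a group came from separate cultures, so p-values measure the spread between these samples, which may be technical.

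MAP kinases are switched on by phosphorylation of a threonine and a tyrosine in their activation loop. The dual-specificity phosphatases called MAP kinase phosphatases remove both phosphates and so switch the kinases off. Those found in the nucleus (Dusp1, Dusp2, Dusp4 and Dusp5) are mostly made on demand as early genes, the cytoplasmic Dusp6 acts on ERK, and Dusp8, Dusp10 and Dusp16 act on the stress kinases JNK and p38. Sprouty proteins sit higher up and dampen signalling from receptor tyrosine kinases to the ERK cascade. Because ERK activity drives transcription of several of these genes, Dusp4, Dusp6, Spry2 and Spry4 are widely read as an index of ERK output in tumour cells.

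Totals ranged from 15276744 to 17060424 counts per sample, and each member had whole-number counts in all 6 samples. Kdm4c, the gene of the enzyme that SD70 inhibits, had 753 ± 34.6 normalized counts in the vehicle group against 765 ± 34.2 after SD70 (SD, n = 3 each; log2 fold change 0.02, edgeR adjusted p = 0.769). Among epithelial markers Krt8 had 2382 to 4150 counts and Krt18 31 to 101, while Epcam, Cdh1 and Krt19 did not exceed 1 count in any sample. The mesenchymal marker Vim had 44823 to 73431 counts, and the surfactant gene Sftpc, the 1 alveolar marker of 4 that was listed, did not exceed 1 count. Summed over the list, 5 epithelial markers stood at 148 to 155 FPKM with DMSO and 94.5 to 106 with SD70. The 4 mesenchymal markers stood at 3056 to 3227 and 2230 to 2516, and the 4 fibroblast markers at 51.3 to 54.3 and 37.9 to 41.1. These sums were lower in every SD70 sample, and their part in the results was not tested. The mesenchymal sum was mostly Vim, while S100a4 overlapped, at 504, 620 and 590 FPKM with DMSO and 494, 619 and 437 with SD70. Cdh2 had at most 1 count in a sample. Col1a1 and Col1a2 had at most 6 and 11, so the fibroblast sum was mostly Pdgfra and Dcn. Leukocyte markers were near the floor, with 5 of 9 listed, at most 2 counts of Ptprc in a sample, and summed levels of 2.16 to 3.40 FPKM with DMSO and 2.59 to 3.53 with SD70. FPKM is the count scaled for gene length and for library depth, and it is the scale on which levels of different genes were compared. In bulk RNA a smaller number of cells of one kind and less RNA per cell cannot be told apart.

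The SD70 and DMSO groups were set against each other in edgeR (quasi-likelihood test, all genes), and a gene was past the test at an adjusted p-value under 0.01. Of the 10 members, 7 were past the test, with 2 higher (Dusp8 and Dusp16) and 5 lower (Dusp4, Dusp5, Dusp6, Dusp10 and Spry2) with SD70. Over all genes tested, 25.8% were past the test and higher and 24.2% were past it and lower, so changes of this kind were frequent in the whole transcriptome. A gene was called when it also moved by at least 1 on the log2 scale. Here 1 member, Dusp8, was called higher and 1, Dusp5, was called lower, against 3.29% and 2.61% of all genes tested. In 8 of the 10 members, all but Dusp1 and Spry4, the groups were separate in normalized counts, with every SD70 sample on the same side of every DMSO sample, as in 64.4% of all genes tested. The median log2 fold change of the members was -0.25, with -0.0043 over all genes tested.

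**Figure D1:**
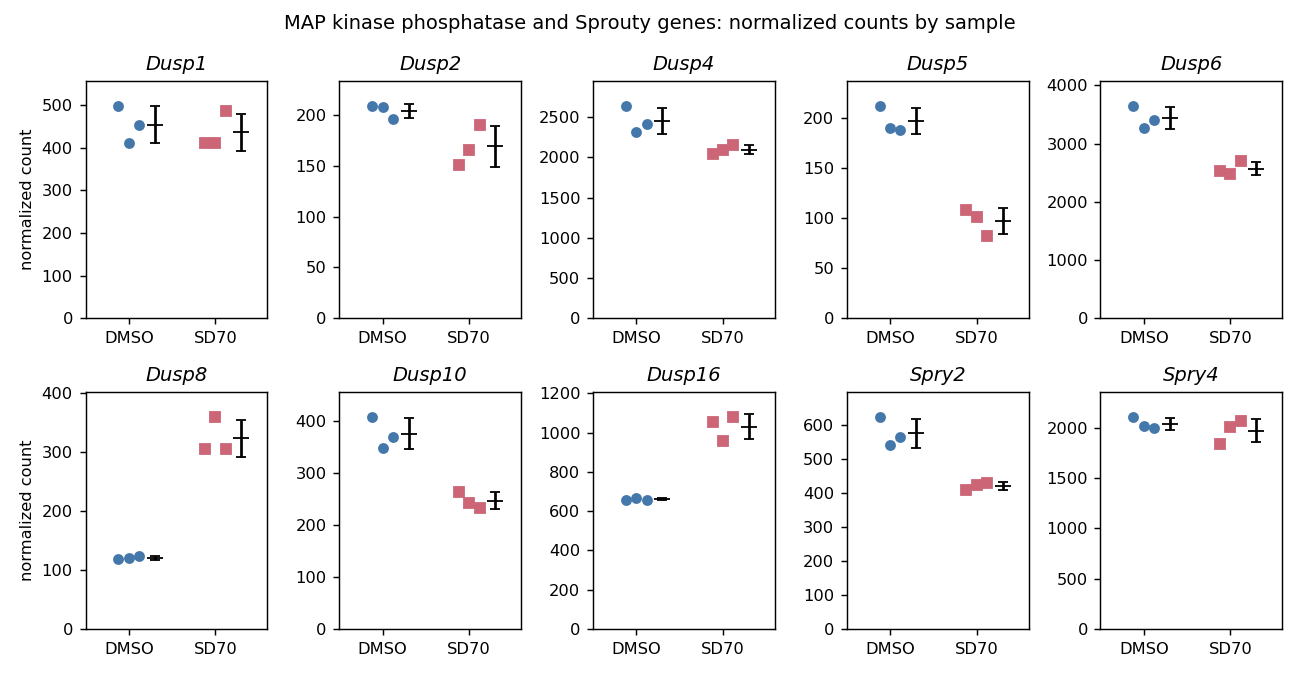
Normalized counts (vertical axes, from 0) of the 10 members in each DMSO sample (circles) and each SD70 sample (squares), with the mean and SD of the 3 samples beside the points. Dusp8 and Dusp16 lie higher in all 3 SD70 samples, Dusp5, Dusp6, Dusp10 and Spry2 lower in all 3, and Dusp1 and Spry4 overlap between the groups.

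The members with the broadest spread of responses were the phosphatases of JNK and p38, which moved in both directions. Dusp8, a phosphatase of JNK and p38 best known from brain and heart, gave 121, 124 and 129 counts in the vehicle group, against 301, 362 and 278 after SD70. All SD70 samples were more than double any DMSO sample. In normalized counts it rose from 121 ± 2.91 to 324 ± 31.1 (SD, n = 3 each), a 2.68-fold rise, with a log2 fold change of 1.42 ± 0.104 (SE; edgeR adjusted p = 5.74e-14). It was the largest change among the members and the 261st largest in absolute size among the 11552 genes tested.

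Dusp16, which holds JNK in check and shuttles between cytoplasm and nucleus, also rose. The DMSO samples gave 673, 686 and 686 counts, against 1041, 965 and 981 after SD70, with little spread in the DMSO group and no overlap. The normalized counts went from 660 ± 5.53 to 1031 ± 64.3 (SD, n = 3 each), a 1.56-fold rise (log2 fold change 0.64 ± 0.0626 SE, edgeR adjusted p = 7.53e-11).

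Dusp10, the third phosphatase of this group, a brake on p38 and JNK in inflamed and stressed cells, fell. It gave 419, 360 and 386 counts in the vehicle group, against 261, 244 and 212 after SD70, so every SD70 sample was below every DMSO sample. Normalized counts fell 1.52-fold, from 376 ± 29.8 to 247 ± 16.3 (SD, n = 3 each; log2 fold change -0.61 ± 0.0871 SE, edgeR adjusted p = 2.89e-07). The opposite movement of Dusp10 and Dusp16 changed their order. The log2 ratio of Dusp10 to Dusp16 in FPKM was 0.15 ± 0.117 in the vehicle group, near parity, and -1.09 ± 0.126 after SD70 (SD, n = 3 each). The difference was -1.25 (two-sided exact permutation test, p = 0.1 and adjusted p = 0.1 over 6 pairs, the smallest that 3 samples against 3 allow). Dusp8 gained on Dusp16 as well, its log2 ratio going from -2.31 ± 0.0351 to -1.53 ± 0.233 (SD, n = 3 each; two-sided exact permutation test, p = 0.1).

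Among the nuclear phosphatases, Dusp5, the ERK-specific one, moved most. It gave 217, 196 and 196 counts in the vehicle group, against 106, 102 and 75 after SD70, and every SD70 sample lay far below the lowest DMSO sample. Normalized counts fell 2.02-fold, from 197 ± 12.9 to 97.1 ± 13.0 (SD, n = 3 each; log2 fold change -1.01 ± 0.121 SE, edgeR adjusted p = 7.19e-09). Its fall was past the test in all 14 alternative fits, but its place among called genes was marginal. The log2 fold change was -0.96 without DMSO replicate 1, -0.92 without SD70 replicate 3 and -0.93 on log2(FPKM + 1), where it was no longer called.

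Dusp4, a nuclear phosphatase of ERK, JNK and p38 and the most abundant of the nuclear members per length, fell slightly. The DMSO samples gave 2703, 2384 and 2516 counts, against 2008, 2110 and 1957 after SD70. The groups did not overlap, and the difference was small: 2454 ± 163 against 2095 ± 57.6 normalized counts (SD, n = 3 each; log2 fold change -0.23 ± 0.0539 SE, edgeR adjusted p = 4.69e-04). Over the 14 alternatives its adjusted p-value ranged from 7.34e-05 to 0.00979.

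Dusp2, known from activated lymphocytes, and Dusp1, the early-response phosphatase of p38, JNK and ERK, were not past the test. Dusp2 gave 214, 214 and 205 counts in the vehicle group, against 149, 167 and 173 after SD70, which do not overlap. Its log2 fold change was -0.28 ± 0.106 (SE; 95% interval -0.49 to -0.06; edgeR adjusted p = 0.0253). It was past the test without SD70 replicate 3 (-0.37, edgeR adjusted p = 0.00689) and on log2(FPKM + 0.1) (limma adjusted p = 0.00937), with 0.136 as the largest adjusted p of the 14 alternatives. Dusp1 gave 510, 423 and 473 counts in the vehicle group, against 406, 414 and 442 after SD70, and in normalized counts the groups overlapped. Its log2 fold change was -0.06 ± 0.0819 (SE; 95% interval -0.23 to 0.11; edgeR adjusted p = 0.557), and it turned to 0.01 without DMSO replicate 1. Relative to Dusp4 within each sample, Dusp1 was higher in every SD70 sample, by 0.17 in the mean log2 ratio (two-sided exact permutation test, p = 0.1).

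Dusp6, the cytoplasmic ERK phosphatase whose transcript follows ERK activity in many cell types, was the most abundant member and fell. The DMSO samples gave 3734, 3370 and 3545 counts, against 2491, 2500 and 2458 after SD70, all 3 SD70 samples being well below all 3 DMSO samples. Normalized counts fell by 25.2%, from 3437 ± 186 to 2572 ± 117 (SD, n = 3 each; log2 fold change -0.42 ± 0.0524 SE, edgeR adjusted p = 1.87e-08). Within samples, Dusp6 lost ground to Dusp4, the log2 ratio of Dusp4 to Dusp6 going from -0.27 ± 0.0186 to -0.08 ± 0.0436 (SD, n = 3 each), and it gained on Dusp5, with log2 ratios of Dusp5 to Dusp6 of -2.72 ± 0.0520 and -3.31 ± 0.256. Both ratios were apart in the 2 groups (two-sided exact permutation test, p = 0.1 each).

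The Sprouty genes differed from each other. Spry2, an inducible inhibitor of receptor tyrosine kinase signalling, gave 638, 555 and 586 counts in the vehicle group, against 402, 425 and 390 after SD70. It fell by 26.9% in normalized counts, from 574 ± 42.7 to 420 ± 10.8 (SD, n = 3 each; log2 fold change -0.45 ± 0.0739 SE, edgeR adjusted p = 2.76e-06). Spry4, its close relative, gave 2160, 2075 and 2081 counts in the vehicle group, against 1814, 2023 and 1875 after SD70. Once scaled for library size these overlapped, at 2039 ± 58.2 and 1971 ± 116 normalized counts (SD, n = 3 each), with a log2 fold change of -0.05 ± 0.0541 (SE; 95% interval -0.16 to 0.06; edgeR adjusted p = 0.450). A change in Spry4 of the size seen in Spry2 lies outside that interval. The difference between them was seen within each sample, where the log2 ratio of Spry2 to Spry4 in FPKM was -0.56, -0.70 and -0.63 with DMSO and -0.97, -1.06 and -1.07 with SD70 (two-sided exact permutation test, p = 0.1).

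**Figure D2:**
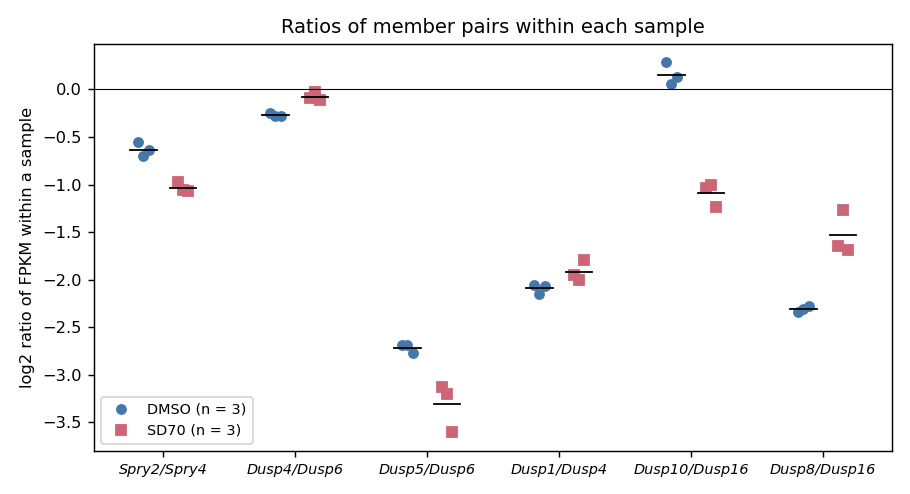
Log2 ratio of the FPKM of 2 members within each sample (vertical axis) for 6 pairs, with DMSO samples as circles, SD70 samples as squares and the mean of each group as a line. The groups are apart in all 6 pairs, most widely for Dusp10/Dusp16, which went from 0.15 to -1.09 in the mean. No share was computed for other gene pairs, and 64.4% of single genes tested were separate between the groups.

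The directions of the 7 members past the test were the same in every alternative fit, which covered other scalings, filters and tests, the replicate number as a block and each sample left out in turn. The log2 fold change ranged from 1.00 to 1.47 for Dusp8, from 0.55 to 0.70 for Dusp16 and from -0.46 to -0.38 for Dusp6. Spry4 was between -0.09 and -0.0008 and was past the test in 0 of the 14.

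**Figure D3:**
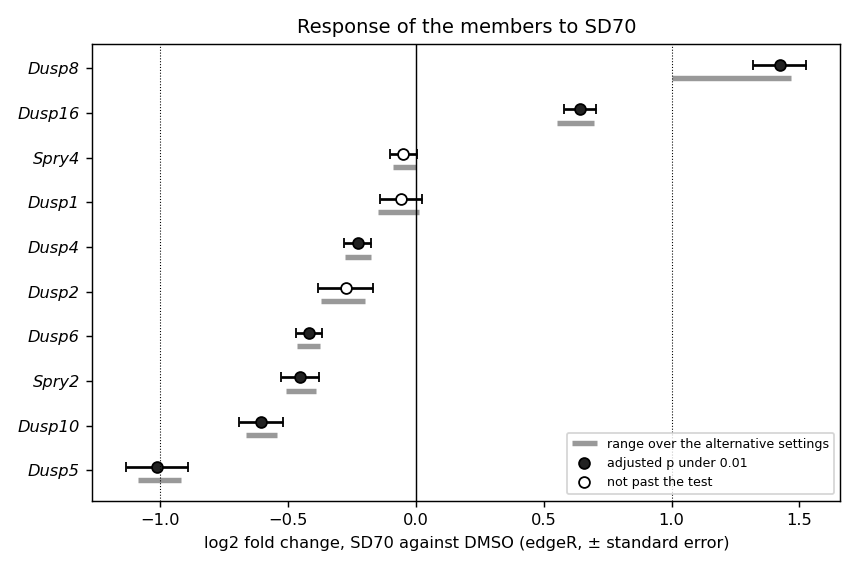
Log2 fold change of SD70 against DMSO (horizontal axis) for each member, with the standard error from edgeR as a bar, filled points for an adjusted p-value under 0.01, and a grey line for the range over the 14 alternative fits. Dotted lines mark 1 and -1. Dusp8 and Dusp16 lie to the right of 0, and Dusp5 lies at the dotted line at -1.01.

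Levels were ordered per length in each group. With DMSO, Dusp6 stood at 80.0 ± 4.34 FPKM and Dusp4 at 66.5 ± 4.48, followed by Spry4 at 28.2 ± 0.833, Spry2 at 18.2 ± 1.38, Dusp1 at 15.7 ± 1.49, Dusp5 at 12.2 ± 0.911, Dusp10 at 9.12 ± 0.711, Dusp2 at 8.62 ± 0.359, Dusp16 at 8.18 ± 0.0819 and Dusp8 at 1.65 ± 0.0379 (SD, n = 3 each). The ranges of Spry2 and Dusp1 overlapped, as did those of Dusp10 and Dusp2 and of Dusp2 and Dusp16. With SD70, the ranges of Dusp6 at 58.5 ± 2.74 FPKM and Dusp4 at 55.5 ± 1.65 overlapped (SD, n = 3 each). Within each SD70 sample Dusp6 was still the higher, with log2 ratios of Dusp4 to Dusp6 of -0.09, -0.03 and -0.11. Dusp16, at 12.5 ± 0.792, had moved from the ninth to the sixth place, level with Spry2 at 13.0 ± 0.322 (SD, n = 3 each). Dusp8 stayed the lowest at 4.32 ± 0.433 FPKM (SD, n = 3) despite its rise. The place of Dusp5 is uncertain, because its deposited FPKM and count imply an effective length of 968 to 1000 bases, against a longest GENCODE transcript of 2473 bases. For Dusp6 the same calculation gave 2610 to 2642 bases, against 2796.

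To see the make-up of the phosphatases as a whole, the 10 classical MAP kinase phosphatases (the 8 Dusp members with Dusp7 and Dusp9, which like Dusp6 are cytoplasmic) were summed in FPKM. The sum fell from 256 ± 9.36 to 217 ± 6.36 FPKM (SD, n = 3 each), and the 3 SD70 samples lay below the 3 DMSO samples. The share of Dusp6 went from 31.2 ± 0.584% to 27.0 ± 0.707%, while Dusp4 overlapped between the groups, at 26.0 ± 0.802% and 25.6 ± 0.107% (SD, n = 3 each). The phosphatases of JNK and p38 together went from 7.41 ± 0.0201% to 10.5 ± 0.415% (SD, n = 3 each). In normalized counts, which give longer transcripts more weight, their share was larger, at 11.2% and 17.2%. In FPKM the largest gain of a single phosphatase was that of Dusp9, a cytoplasmic ERK phosphatase, from 13.0 ± 1.63% to 18.0 ± 0.948% (SD, n = 3 each). In normalized counts Dusp16 gained most, by 4.69 percentage points against 4.43 for Dusp9. The cytoplasmic ERK phosphatases together overlapped between the groups in FPKM, at 52.4 ± 1.19% and 51.1 ± 0.325% (SD, n = 3 each). The nuclear phosphatases together went from 40.2 ± 1.21% to 38.4 ± 0.318% (SD, n = 3 each), with separate groups. Of the nuclear ones Dusp5 alone was apart in FPKM, going from 4.76% to 2.74%, and its FPKM is uncertain for the reason of length given with the levels. In normalized counts the cytoplasmic share was separate and lower with SD70, at 56.7 ± 0.980% and 52.7 ± 0.380% (SD, n = 3 each). On that scale Dusp4 was also separate and lower, at 23.8 ± 0.828% and 22.5 ± 0.140% (SD, n = 3 each). Within the JNK and p38 phosphatases Dusp16 took 3.20% and then 5.77% in FPKM, Dusp8 0.647% and then 2.00%, and Dusp10 3.56% and then 2.71%.

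**Figure D4:**
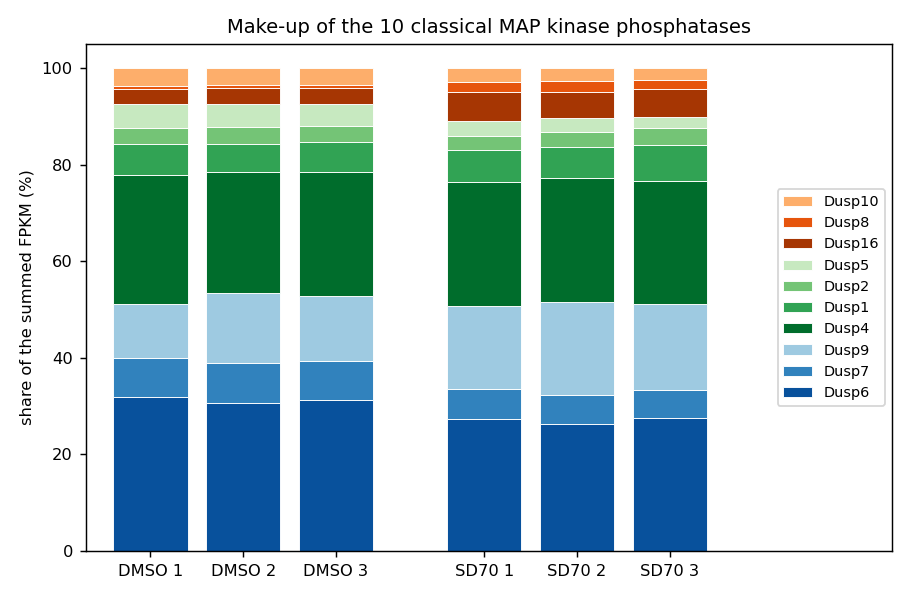
Share of each of the 10 classical MAP kinase phosphatases in their summed FPKM (vertical axis, percent), 1 bar per sample. Blue marks the cytoplasmic ERK phosphatases, green the nuclear ones and orange those of JNK and p38, which together make up 7.41% with DMSO and 10.5% with SD70.

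On GRCm38.p6, the RefSeq gene of Dusp6 lies on the plus strand of chromosome 10 from 99263231 to 99267489, and that of Dusp4 on the plus strand of chromosome 8 from 34807610 to 34819894. Dusp10 lies on chromosome 1 from 184034381 to 184075636 and Dusp2 on chromosome 2 from 127336159 to 127338377, both on the plus strand. On the minus strand lie Dusp16, on chromosome 6 from 134715468 to 134807063, Spry2, on chromosome 14 from 105891947 to 105896819, and Spry4, on chromosome 18 from 38586247 to 38601347. Dusp6 has 3 exons and Spry2 and Spry4 have 2 in their longest GENCODE transcript, against 7 in Dusp8 and Dusp16. Exons of Dusp1 overlap those of Ergic1 on the other strand, which had 2492 to 2953 counts. Exons of Dusp5 overlap an annotated antisense RNA and those of Dusp8 a divergent RNA, neither of which is among the listed genes. The sources used here do not say whether the libraries keep strand, and without strand reads from such overlaps cannot be told apart.

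The promoters of 8 members (7 Dusp genes and Spry2, without Dusp4 and Spry4) were taken from the RefSeq table and searched for sequence elements of signal-responsive genes, since ERK and stress kinases act on transcription through factors that bind them. The promoters run from 250 bases before to 50 bases after a RefSeq start site. Dusp8 and Dusp5, the members called higher and lower, carried matches of different kinds, and Dusp1 shared the one found in Dusp8. Their sequences are therefore shown, each 5′ to 3′ on the strand of the gene.

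The cyclic AMP response element (CRE), TGACGTCA, a palindrome bound by CREB and ATF family factors, was found in the promoters of Dusp8 and Dusp1 and in 1.79% of the 32851 mouse promoters of this length. Dusp8 has it at 2 places, from 107 to 100 and from 63 to 56 bases before the start site, and Dusp1 at 1 place, from 143 to 136 bases before it. The G and C content of these promoters was 73.3% (Dusp8) and 67% (Dusp1), against a median of 52.7% over all promoters. The share of 1.79% was not matched for it. The Dusp8 start site of the table lies inside the annotated gene, which runs on the minus strand of chromosome 7 from 142079487 to 142095907. So does that of Dusp16, further in, with a window at chr6:134792579-134792878 in a minus-strand gene from 134715468 to 134807063. The promoter windows are chr7:142095235-142095534 (minus strand) for Dusp8 and chr17:26508423-26508722 (minus strand) for Dusp1, on GRCm38.p6. Capitals mark the CRE.
Dusp8: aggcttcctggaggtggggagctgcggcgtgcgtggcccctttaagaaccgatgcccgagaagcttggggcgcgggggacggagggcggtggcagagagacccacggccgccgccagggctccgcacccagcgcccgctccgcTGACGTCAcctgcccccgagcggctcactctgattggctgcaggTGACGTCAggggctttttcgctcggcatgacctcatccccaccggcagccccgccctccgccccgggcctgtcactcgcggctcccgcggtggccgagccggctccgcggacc
Dusp1: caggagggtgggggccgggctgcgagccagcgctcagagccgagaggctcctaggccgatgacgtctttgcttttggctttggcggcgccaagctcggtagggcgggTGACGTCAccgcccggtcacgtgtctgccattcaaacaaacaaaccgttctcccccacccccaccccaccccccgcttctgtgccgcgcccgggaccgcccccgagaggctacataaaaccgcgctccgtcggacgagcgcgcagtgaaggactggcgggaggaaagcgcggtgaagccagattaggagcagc

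The CArG box, the site of serum response factor that ERK signalling engages through ternary complex factors, was found in the promoter of Dusp5 at 2 adjoining places, from 82 to 73 and from 72 to 63 bases before the start site. It was found in 1.63% of all promoters. The window is chr19:53528895-53529194 on the plus strand of GRCm38.p6, and capitals mark both boxes, which run together.
Dusp5: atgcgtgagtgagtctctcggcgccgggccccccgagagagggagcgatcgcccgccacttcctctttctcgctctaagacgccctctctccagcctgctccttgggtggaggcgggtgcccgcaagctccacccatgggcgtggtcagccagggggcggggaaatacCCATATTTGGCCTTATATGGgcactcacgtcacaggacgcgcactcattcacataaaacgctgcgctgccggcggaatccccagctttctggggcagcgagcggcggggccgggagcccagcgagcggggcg

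None of the 8 promoters held the AP-1 element TGANTCA, the ETS core CCGGAAGT, the C/EBP-ATF element TGATGNAA or the NF-kB consensus, searched on both strands. These were found in 7.81%, 3.89%, 3.97% and 5.80% of all promoters in that order. A match describes letters in a window and was not tested as a binding site, and Dusp8, which rose, and Dusp1, which was not past the test, hold the same element.

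Outside the 10 members, the remaining classical phosphatases moved in opposite directions. Dusp7, a cytoplasmic ERK phosphatase, fell from 1034 ± 30.5 to 669 ± 21.2 normalized counts (SD, n = 3 each; log2 fold change -0.63 ± 0.0609 SE, edgeR adjusted p = 7.03e-11). Dusp9, its relative, rose from 1375 ± 126 to 1654 ± 102 (SD, n = 3 each; log2 fold change 0.27 ± 0.0620 SE, edgeR adjusted p = 4.32e-04). On log2(FPKM + 1) the adjusted p of Dusp9 was 0.0116 and on log2(FPKM + 0.1) it was 0.0105 (limma), so its rise was not past the test on that scale.

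Of the relatives of Sprouty, 4 were tested, and 3, all of them Spred genes, which inhibit signalling from RAS to ERK, were past the test and lower with SD70, which is 75% of them against 24.2% of all genes. Spred1 had a log2 fold change of -0.20 (adjusted p = 6.47e-04), Spred2 of -0.18 (adjusted p = 0.00319) and Spred3 of -0.24 (adjusted p = 0.00339, all from edgeR), with separate groups in normalized counts in each. Spry1 gave 11, 8 and 11 counts in the vehicle group, against 19, 14 and 4 after SD70 (edgeR adjusted p = 0.418). The falls were small, and none was called. Spred1 was past the test in all 14 alternatives, Spred2 in 11 and Spred3 in 10, and 1 to 2 of the 3 were past it when a sample was left out, with 1 without DMSO replicate 2. The atypical small dual-specificity phosphatases, most of which have other substrates, had 10 members tested, with 2 higher (Dusp12, log2 fold change 0.55, and Styx, 0.19), 1 lower (Dusp14, -0.31) and a median of 0.02. These are 20% and 10% of the list, below the 25.8% and 24.2% of all genes. Dusp12 was past the test in all 14 alternatives, Dusp14 in 12 (not without DMSO replicate 1 or SD70 replicate 3) and Styx in 11, and the list had 2 to 3 past the test when a sample was left out.

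Genes that ERK induces were compared as readouts of the pathway that the brakes act on. Of 13 tested, 6 (46.2%) were past the test and higher and 3 (23.1%) past it and lower, against 25.8% and 24.2% of all genes, with a median log2 fold change of 0.20. The immediate early gene Ier2 had 517 ± 44.5 normalized counts and rose to 1626 ± 197 (SD, n = 3 each; log2 fold change 1.65, edgeR adjusted p = 6.68e-13), Myc by 1.24 and Phlda1 by 0.73 on the log2 scale. Among the ETS factors used with Dusp6 and Spry4 in signatures of ERK output, Etv5 rose by 0.40 and Etv4 and Etv1 fell by 0.28 and 0.69 on the log2 scale. The genes of this list moved in both directions, with Etv1, Etv4 and Ccnd1 lower, Ier2, Egr3, Epha2, Phlda1, Etv5 and Myc higher, and 4 not past the test.

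Of 24 tested genes of the RAS and ERK cascade, 7 (29.2%) were past the test and higher and 6 (25.0%) past it and lower, near the 25.8% and 24.2% of all genes, with a median log2 fold change of -0.02. Rps6ka2, a kinase downstream of ERK, rose by 1.18 and the exchange factor Sos2 by 0.98 on the log2 scale, while Mapk3, which encodes ERK1, fell by 0.48 on the log2 scale (edgeR adjusted p = 1.68e-09). Of 20 tested genes of the JNK and p38 cascade, whose phosphatases include Dusp8 and Dusp16, 1 (Mapk8, which encodes JNK1, log2 fold change 0.18, edgeR adjusted p = 0.00867) was past the test and higher and 7 past it and lower, with a median of -0.11. That is 5% and 35% of the list, against 25.8% and 24.2% of all genes, and 6 to 7 genes in place of 8 were past the test when a sample was left out. Map3k1, a kinase at the head of the JNK cascade, went from 1959, 1612 and 1761 counts with DMSO to 645, 682 and 532 with SD70, a log2 fold change of -1.43 ± 0.0695 (SE; edgeR adjusted p = 1.16e-16). Map3k11, the scaffold Mapk8ip1 and the p38 target kinase Mapkapk2 fell by 0.44, 0.42 and 0.36 on the log2 scale.

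Of 7 tested genes of the ERK5 and atypical MAP kinase branches, 0 were past the test and higher and 3 (42.9%) past it and lower, against 25.8% and 24.2% of all genes. Map3k2 and Map3k3, kinases that feed ERK5, had log2 fold changes of -0.31 and -0.24. Mapk4 gave 13, 14 and 11 counts in the vehicle group, against 5, 5 and 3 after SD70 (log2 fold change -1.43, edgeR adjusted p = 0.00497), and it was past the test in 4 of 13 alternatives. In this list 5 genes were past the test without DMSO replicate 3. Of 7 tested phosphatases of MAP kinases from other families, Ppm1a, Ptpn7 and Ppp2ca were past the test and higher, with log2 fold changes of 0.40, 0.90 and 0.21, and Ppm1d was lower at -0.38. These are 42.9% and 14.3% of the list, against 25.8% and 24.2% of all genes.

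**Figure D5:**
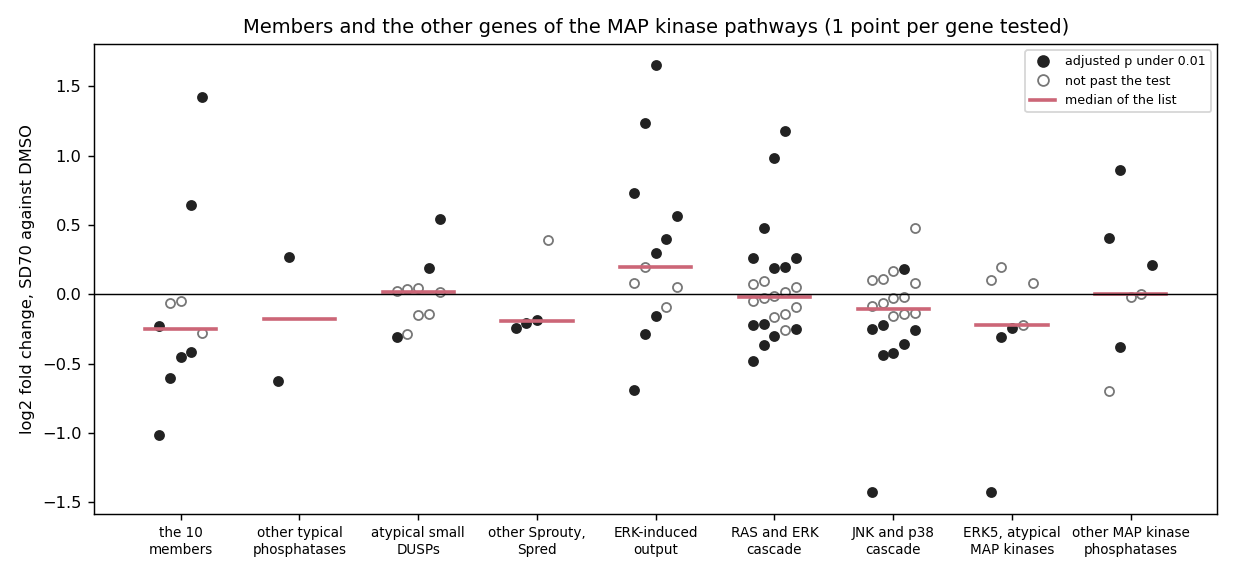
Log2 fold change of SD70 against DMSO (vertical axis), 1 point per tested gene, for the 10 members and 8 lists of other genes of the MAP kinase pathways, with filled points for an adjusted p-value under 0.01 and a line at each list's median. The members range from -1.01 (Dusp5) to 1.42 (Dusp8), and the 13 ERK-induced genes have points on both sides of 0.

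By correlation of log2-scaled library-normalized counts over the 6 samples, the genes with the pattern most like that of Dusp8 were Ints14, Txndc9 and Zc3h12a, with Pearson r of 0.999, 0.999 and 0.998. All 6 points share the division into 2 groups, 80 of 11551 genes had an r above 0.99, and the values are given as a description.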

How the data were processed

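Gene expression in Lewis cells was read by RNA-seq, with 3 samples per group by sample title. The authors aligned BGISEQ-500 reads to GRCm38.p6 with HISAT. The submitters' processing notes name StringTie 1.3.3b and the build mm8, and the counting tool is not given in the sources used here. For each gene and sample the authors deposited an expected count, not normalized, and an FPKM value, scaled for length and depth. Expected counts were rounded, filtered by filterByExpr, normalized by TMM (factors 0.984 to 1.02) and tested with edgeR 4.0.16 (glmQLFit, robust, glmQLFTest) in R 4.3.3, with Benjamini-Hochberg adjustment over 11552 genes. The thresholds were 0.01 and log2 1, the study's values, applied here to adjusted p-values, while the study names no adjustment for its own. Standard errors come from the F statistic. Normalized counts refer to a library of 16559245 counts, the mean effective size. Fits were tested on simulated data.

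Depth was 15276744 to 17060424 counts per sample. Replicates of a group differed by more than sampling noise (2.12 to 4.97 in mean chi-square over genes). The labels give both groups the replicate numbers 1 to 3 without saying that same-numbered samples were handled together. Deviations from the group means over 9623 genes with at least 100 normalized counts gave same-numbered samples Pearson r of 0.176, 0.254 and 0.157, so the numbers were treated as pairing the samples in an alternative fit.

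Alternatives were DESeq2's size factors, library totals alone, genes with at least 1 count, at least 10 counts in every sample, a replicate block, each sample left out, DESeq2 1.42.0, limma 3.58.1 on log2(FPKM + 1) and log2(FPKM + 0.1), and a threshold of 0.05. Ratios were compared by exact permutation with scipy 1.17.1. Genes named from a list are at most 4 by absolute log2 fold change among those past the test, all genes of lists of 5 or fewer, and Mapk8, Ccnd1, Epha2, Etv4, Etv5, Egr3, Egr1, Fos and Egfr, chosen after their values were seen. One gene that this rule names is not reported here. The members and lists were chosen with earlier results of these data known. Promoters are from RefSeq on GRCm38.p6, and 8 of 10 members were used.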

Additional observations from a re-analysis of the deposited data

How the results depend on the processing

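The 7 members past the test stayed past it, with the same direction, in all 14 alternative fits, and under a replicate block 7 members were past the test and 2 called, as without it. The block gave 692 called genes against 681 and changed no other call among the members. The number of called members was between 1 and 2, the called genes between 621 and 721, and the members past the test between 7 and 8 when each sample was left out in turn. On log2(FPKM + 1), a scale that understates low genes, 283 genes and 1 member were called. The log2 fold change of Dusp1 ranged from -0.147 to 0.0106 with a sample left out, reversing to 0.0106 without DMSO replicate 1, and the cause was not tested. The ERK5 list had 2 to 5 genes past the test and the Sprouty and Spred list 1 to 2 with a sample left out, while the typical phosphatases Dusp7 and Dusp9 had 1 on both log2(FPKM + 1) and log2(FPKM + 0.1). Counted without regard to length, the share of Dusp8, Dusp10 and Dusp16 together was 11.2% with DMSO and 17.2% with SD70. Library totals alone moved the median of all genes to -0.04 on the log2 scale. Depth limits Spry1 and Mapk4, with at most 19 and 14 counts in a sample, the fewest among the tested genes named from the lists. Other listed genes, among them Fos, Egr1 and Egfr, had too few counts to be tested. With 3 samples per group, every exact permutation test of a ratio stays at p = 0.1 or above.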

Other observations

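Among early genes, Egr1 and Fos had few or no counts in these cells, as had the receptor gene Egfr, while Egr3, Ier2 and Myc had more. Egr1, an immediate early target of ERK, had 0 counts in 5 samples and 1 in SD70 replicate 2, and Egfr, a receptor that Sprouty proteins act on, had 0 counts in the DMSO samples and 1, 0 and 1 with SD70. Fos gave 8, 8 and 10 counts in the vehicle group, against 14, 6 and 15 after SD70, and none of these genes was tested. Egr3 was tested and rose by 0.57 on the log2 scale (adjusted p = 3.32e-05 from edgeR), from 128, 142 and 141 counts to 184, 197 and 189.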
